A study of Harpegnathos saltator with 75 samples.

Results

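The comparison described here set 10 brain libraries of the jumping ant Harpegnathos saltator taken at day 3 of a dueling tournament against 5 brain libraries taken at day 0. They were chosen by the tissue and day in their labels and are 15 of the 75 libraries in the series, which also holds 10 brain libraries from day 10 and the fat bodies and ovaries of the same groups. Of the 10 day 3 libraries, 5 came from prospective gamergates and 5 from prospective workers, and the 5 day 0 libraries came from animals whose caste is given as worker. The labels name no genotype, drug or age for any group. The tissue is the brain without its visual part. Polyadenylated RNA was extracted with Trizol, treated with DNase, made into NEBNext Ultra II libraries and sequenced on an Illumina HiSeq. The labels do not say whether a library holds 1 brain or several, nor whether replicates come from different animals. The p-values therefore describe only how these libraries vary, which may be partly technical.

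Harpegnathos saltator is a ponerine ant in which adult workers keep the ability to reproduce. When a colony loses its queen, workers duel with their antennae for days. Those that prevail become gamergates, which mate, activate their ovaries and lay eggs, while the others go back to worker tasks. The change is known to involve dominance behaviour, neuropeptide and juvenile hormone signalling, and a brain that becomes smaller in gamergates, and it can be reversed. The tournament is thus a way to watch an adult insect brain change its gene expression without a moult or a change of genotype. The genes in the deposited table carry identifiers only, and none of them matched the RefSeq gene table used here. No gene could therefore be given a name, a role or a sequence. The neuronal, glial, hormone and neuropeptide genes that would place these results in pathways could not be picked out, nor could the tissue label be checked against named markers. Groups of genes enriched in each of the 3 tissues stand in for them below.

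Reads assigned to genes numbered 504425 to 2921261 in the day 3 libraries and 903902 to 2373899 in the day 0 libraries, and the means did not differ beyond the spread (two-sided exact permutation test over 3003 assignments, p = 0.848, adjusted over 9 library measures p = 0.954). Day 0 library 5 stood apart from the other 14. On the first principal component of log2 expression, which held 57.2% of the variance, it lay at −136, while the others lay between −13.6 and 36.1. Reads falling outside annotated genes made up 67.7% of this library and 57.1% to 58.0% of the other 4 day 0 libraries. The share aligned to several places was 8.35% in it and 5.74% to 6.32% in the other 4. Values without this library are therefore given beside those with it.

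Read classes also moved with day. Reads outside genes made up 54.8% ± 2.31 (SD, n = 10) of the day 3 libraries and 59.7% ± 4.50 (SD, n = 5) of the day 0 libraries, and the ranges overlapped (exact permutation p = 0.00699, adjusted p = 0.0210). Without day 0 library 5 that difference was −2.89 percentage points (exact permutation p = 0.0300, adjusted p = 0.0899). Multiply aligned reads made up 5.14% ± 0.396 (SD, n = 10) at day 3 and 6.51% ± 1.05 (SD, n = 5) at day 0, with no overlap (exact permutation p = 0.000333, the smallest the design allows, adjusted p = 0.00300). The difference without day 0 library 5 was −0.919 points (exact permutation adjusted p = 0.00899). Reads that could belong to more than 1 gene were higher at day 3, at 1.01% ± 0.145 (SD, n = 10) against 0.743% ± 0.0719 (SD, n = 5), also with no overlap (exact permutation p = 0.00266, adjusted p = 0.0120). Without that library it was 0.237 points (exact permutation adjusted p = 0.0360). Within day 3, gamergate libraries 2 and 5 and worker libraries 4 and 5 had 56.9% to 57.9% of reads outside genes, close to the day 0 level, and the other 6 had 52.6% to 53.4%.

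**Figure D1:**
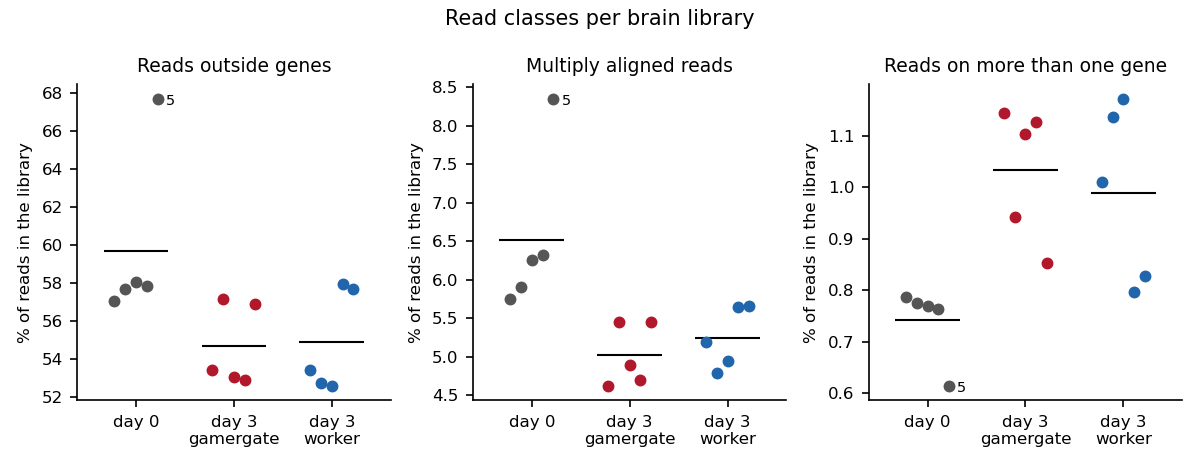
Share of each brain library's reads (vertical axes, %) that fell outside genes, aligned to several places or could belong to more than 1 gene, for the 5 libraries of day 0, day 3 gamergates and day 3 workers. Points are libraries, bars are group means, and the point marked 5 is day 0 library 5, which lies at 67.7%, 8.35% and 0.615%.

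The library names carry a flow cell code and a lane code. All 10 day 3 brain libraries carry the same flow cell code, with workers on lane 1 and gamergates on lane 2, so that at day 3 caste and lane cannot be told apart. Of the day 0 libraries, 3 (numbers 1, 2 and 5) share that flow cell code and 2 (numbers 3 and 4) carry the other.

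By day 3, brain levels of many genes differed from day 0 in both directions, mostly by less than 2-fold. With all libraries there were more falls than rises. Of 9886 genes tested, 2303 (23.3%) differed at an adjusted p below 0.05, of which 837 (8.47%) were higher and 1466 (14.8%) were lower at day 3. The test was edgeR's quasi-likelihood test with Benjamini-Hochberg adjustment. The median log2 fold change, day 3 minus day 0, was 0.77 among the genes that rose and −0.81 among those that fell, beside −0.03 over all genes tested, and the median standard error over all genes was 0.23. A change of more than 2-fold was seen in 169 of the genes that rose and 399 of those that fell, and a change of more than 4-fold in 5 and 29. In whole-tissue RNA, a change in the number of cells of a type and a change in RNA per cell cannot be told apart.

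Without day 0 library 5, 724 of 9853 genes tested (7.35%) passed the same threshold, 330 higher (3.35%) and 394 lower (4%). Of these, 640 (6.47% of 9886) were also called with all libraries, 284 higher (2.87%) and 356 lower (3.6%). For the genes called with all libraries, the median log2 fold change without it was 0.60 for the rises and −0.55 for the falls, from fits that share all the other libraries. The biological coefficient of variation was 0.272 with the library and 0.211 without it. Leaving out day 10 gamergate library 5 as well gave 2775 genes, 1387 higher and 1388 lower. The excess of falls was thus smaller without day 0 library 5 and gone without both.

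The counts also moved when single day 3 libraries were left out. They came to 1438 without gamergate library 1, 1516 without gamergate library 3 and 1486 without gamergate library 4. Without worker library 2 the count was 1299, and without worker library 3 it was 1440. All 5 of these libraries were among the 6 with the lowest shares of reads outside genes. With that share as a covariate, an alternative chosen after seeing the data, 41 genes passed, 2 higher and 39 lower. Within the flow cell code of the day 3 libraries, 10 libraries against 3, 2032 genes passed, and 112 passed when day 0 library 5 was also left out of it. The part of the read classes in the changes of single genes was not tested.

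**Figure D2:**
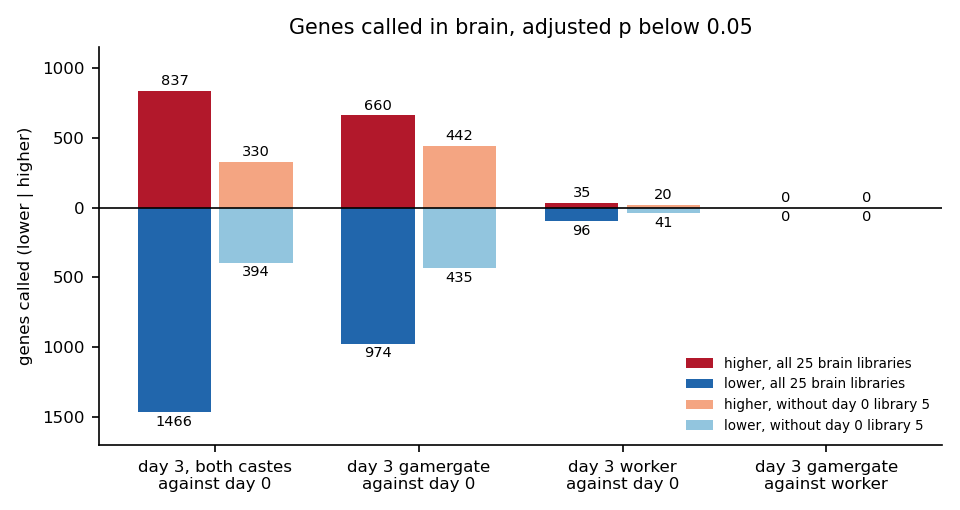
Number of genes higher (above the line) or lower (below the line) at an adjusted p below 0.05 in 4 comparisons of brain libraries, with all 25 brain libraries and without day 0 library 5. The count of both castes against day 0 is 837 higher and 1466 lower with all libraries and 330 higher and 394 lower without that library, and no gene is called between the castes.

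A stricter reading asks that no day 3 library overlap any day 0 library. This held for 428 of the 9886 genes (4.33%), 200 (2.02%) with all 10 day 3 libraries above all 5 day 0 libraries and 228 (2.31%) with all below. Leaving out day 0 library 5 from this reading gave 572 (5.79%), 282 above (2.85%) and 290 below (2.93%). Of the 428, 399 were also called, 181 higher and 218 lower. The 4 genes described next are the largest rises and falls that met this condition, passed the threshold and reached a mean of 10 CPM (reads of a gene per 1e+06 assigned reads, with each library's total scaled by TMM) in the higher group. Levels are compared only within a gene, since gene lengths were not used. TMM factors were estimated within each tissue, so levels set between tissues are approximate.

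HSALG002043.2 had the largest fall among genes meeting these conditions. Its day 0 levels were 321, 913, 35.8, 629.5 and 262 CPM in libraries 1 to 5. At day 3 the gamergate libraries held 20.3, 3.93, 4.69, 20.3 and 9.40 CPM and the worker libraries 7.75, 2.29, 16.4, 3.55 and 6.39 CPM. Every day 3 library was below every day 0 library, although day 0 library 3 was far lower than the other 4. The log2 fold change was −5.65 (SE 0.606 and adjusted p = 6.77e-06 by edgeR), and −5.81 without day 0 library 5 (adjusted p = 5.17e-05). This is a gene of the fat body group: at day 0 its mean level in the fat body was 54460 CPM, so the brain held 0.794% of the fat body level, and at day 3 it held 0.997% of 952 CPM. The fall measured in the fat body was −5.92 (SE 0.896, adjusted p = 0.000136), and the part of fat body RNA in the brain value was not tested.

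HSALG027005.1, the other of the 2 falls, had day 0 levels of 27.6, 18.0, 52.5, 27.5 and 99.7 CPM. Its day 3 levels ran from 4.11 to 14.9 CPM with a median of 10.6. The groups did not overlap, and the highest day 0 value belonged to library 5. The log2 fold change was −2.12 (SE 0.298 and adjusted p = 0.000243 by edgeR), and −1.60 without that library (adjusted p = 0.000706). It fell by 2.12 in gamergates and by 2.11 in workers on the log2 scale (adjusted p = 0.00558 and 0.00538). Its fat body level was lower than its brain level, with a mean of 8.74 CPM at day 0 against 45.1 CPM in the brain.

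HSALG027442.1 had the largest rise among genes meeting these conditions. Its day 0 levels were 3.31, 6.63, 14.3, 3.15 and 1.42 CPM. At day 3 the gamergate libraries held 33.5, 53.1, 43.2, 20.3 and 36.8 CPM and the worker libraries 27.7, 97.6, 54.7, 16.8 and 32.0 CPM. All day 3 libraries lay above all day 0 libraries, with worker library 2 the highest. The log2 fold change was 2.86 (SE 0.513 and adjusted p = 0.00157 by edgeR), and 2.62 without day 0 library 5 (adjusted p = 0.00565). The gene rose in both castes, by a log2 fold change of 2.70 in gamergates (adjusted p = 0.00909) and 3.03 in workers (adjusted p = 0.00690).

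By day 10 its levels had separated by caste. The 5 gamergate libraries held 0, 3.75, 9.43, 1.55 and 0.632 CPM, back within or below the day 0 range, and the 5 worker libraries held 72.5, 79.0, 118, 39.4 and 35.3 CPM. The ranges of the day 10 castes did not overlap, whereas those of the day 3 castes did. At day 10 too, workers were on lane 1 and gamergates on lane 2, so caste and lane cannot be told apart. The day 10 caste difference was not tested.

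HSALG011308.2 was the other of the 2 rises. Its levels were 13.2, 11.4, 3.98, 7.86 and 7.12 CPM at day 0. At day 3 they were 26.5, 39.3, 40.1, 21.8 and 22.2 CPM in gamergates and 31.0, 33.9, 21.9, 18.7 and 13.9 CPM in workers. The gap between groups was narrow, since worker library 5 lay just above day 0 library 1. The log2 fold change was 1.65 (SE 0.374 and adjusted p = 0.00738 by edgeR), and 1.60 without day 0 library 5 (adjusted p = 0.0226). By caste it was 1.80 in gamergates (adjusted p = 0.0124) and 1.50 in workers (adjusted p = 0.0584), with no call for the difference of 0.30 between them. In the fat body the same gene rose from a mean of 234 to 1369 CPM (log2 fold change 2.53, adjusted p = 7.41e-05), and the brain held 3.72% of the fat body level at day 0 and 1.97% at day 3. Whether fat body RNA contributed to the brain rise was not tested.

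Of the 4 genes, HSALG002043.2 passed under every alternative run, with a highest edgeR adjusted p of 0.00666. The other 3 kept their direction and lost their call under some. With the share of reads outside genes as a covariate, the adjusted p was 0.0638 for HSALG027005.1, 0.483 for HSALG011308.2 and 0.117 for HSALG027442.1. Within the day 3 flow cell code and without day 0 library 5 it was 0.0754, 0.118 and 0.0936.

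**Figure D3:**
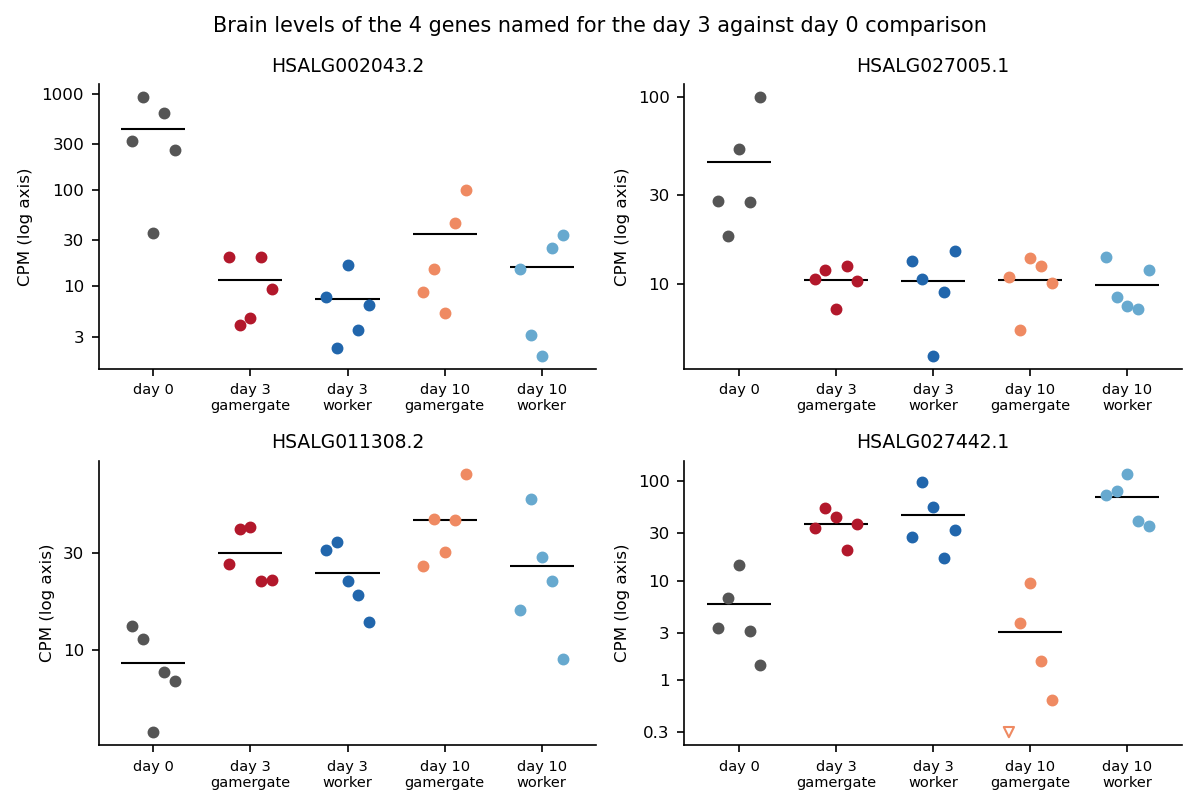
Level of the 4 genes (vertical axes, CPM on a log scale) in each of the 25 brain libraries, by day and caste; points are libraries, bars are group means, and the open triangle is a library with 0 reads, drawn at the foot of the axis. For each gene the 10 day 3 libraries lie on 1 side of the 5 day 0 libraries, and HSALG027442.1 separates by caste at day 10.

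HSALG009096.2, which has the highest total of reads in the table, belongs to the fat body group. It held 1122, 4203, 155, 1874 and 618 CPM in the day 0 brains, and 666 to 5997 CPM with a median of 1884 in the day 3 brains. The groups overlapped, and the difference did not pass (log2 fold change 0.45, SE 0.546 and adjusted p = 0.531 by edgeR). It was 0.24 without day 0 library 5, 0.16 without day 0 library 3 and 1.22 without day 0 library 2. Its mean brain level was 1.04% of its fat body level at day 0 and 1.15% at day 3. Day 3 gamergates held 5701, 2597, 5997, 3805 and 1006 CPM and day 3 workers 835, 1882, 1887, 943 and 666 CPM, and the caste difference did not pass (edgeR unadjusted p = 0.0164, adjusted p = 1.00).

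Each caste was also set against day 0 by itself. Prospective gamergates gave more calls, with 1634 genes (16.5%), 660 higher (6.68%) and 974 lower (9.85%), while prospective workers gave 131 (1.33%), 35 higher (0.354%) and 96 lower (0.971%). At an unadjusted p below 0.05 in edgeR the counts were closer, 3705 (37.5%) for gamergates and 2821 (28.5%) for workers. Both comparisons use the same 5 day 0 libraries. The order turned with the fit: gamergates gave 9 and workers 31 with the share of reads outside genes as a covariate. With that covariate and no day 0 library 5 they gave 0 and 17 (edgeR, where 963 genes had an unadjusted p below 0.05 in gamergates). With flow cell and lane as a term, workers gave 2209, against day 0 libraries 1 and 5 only. Gamergates then met day 0 library 2 alone, so that fit does not compare the castes' counts. Gamergate against worker at day 3, tested directly, gave 0 genes in edgeR (0%), with 126 (1.27%) at an unadjusted p below 0.05, and 0 in DESeq2. Without day 0 library 5 the counts were 877 (8.9%) for gamergates, 61 (0.619%) for workers and 0 between castes, with 306 (3.11%) at an unadjusted p below 0.05. Between castes, 605 of 9789 genes had an edgeR unadjusted p below 0.05 when day 10 gamergate library 5 was also left out. With limma voom and library quality weights it was 1386 of 9886, and both settings gave 0 calls. A count of 0 does not show that the castes were alike.

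The sizes of change were closer than the counts. Among the 837 genes called higher, chosen on the mean of both castes, the median log2 fold change was 0.83 in gamergates and 0.70 in workers. Among the 1466 called lower it was −0.87 and −0.76. The median difference, gamergate minus worker, was 0.12 in the higher genes and −0.12 in the lower genes, beside −0.0013 over all genes tested. Leaving out gamergate library 1, 3 or 4 brought the gamergate count to 374, 305 or 321. The worker count went to 27, 22 or 31 without worker library 1, 2 or 3, to 83 without worker library 5, and up to 306 without worker library 4 and 229 without day 0 library 2.

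The 10 day 3 libraries did not lie equally far from day 0. For each gene called with and without day 0 library 5, levels were centred on the mean of the 15 day 0 and day 3 libraries, on the log2 CPM scale. The median over the 284 higher genes was −0.33 to −0.40 in day 0 libraries 1 to 4 and −1.26 in library 5. It lay between 0.21 and 0.48 in 7 of the day 3 libraries. It was 0.10 in gamergate library 5, 0.02 in worker library 5 and −0.02 in worker library 4, which are 3 of the 4 day 3 libraries with the day 0 share of reads outside genes. The remaining library of those 4, gamergate library 2, lay at 0.335, among the 7. The 356 lower genes gave the mirror image, at 0.43 to 0.99 in the day 0 libraries and −0.52 to 0.13 in the day 3 libraries. These genes were chosen on the day 3 and day 0 libraries, so their separation is a description.

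**Figure D4:**
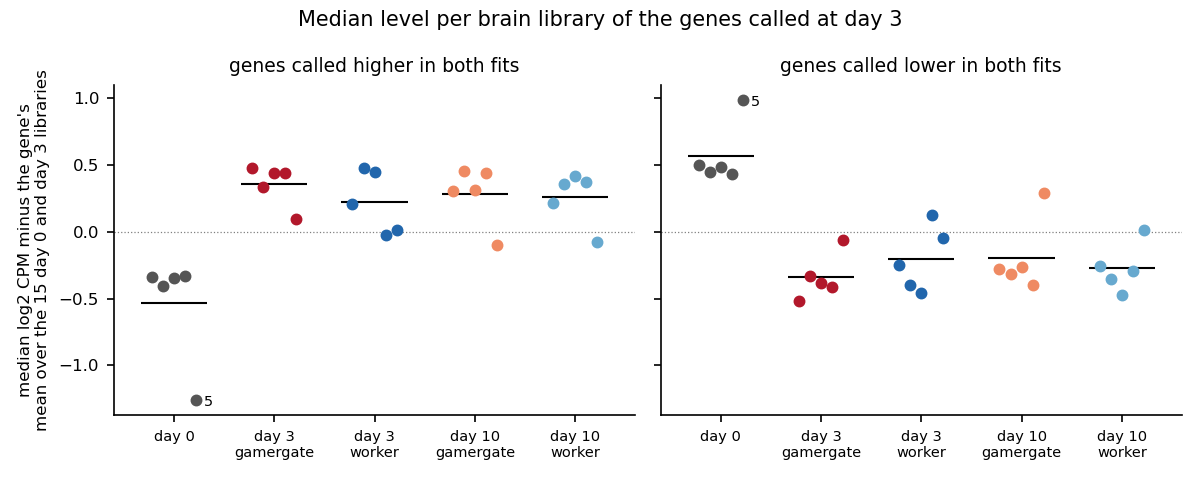
Median over genes of the log2 CPM minus the gene's mean over the 15 day 0 and day 3 libraries (vertical axes), for the 284 genes called higher (left) and the 356 called lower (right) at day 3 both with and without day 0 library 5. Points are libraries, bars are group means, and the point marked 5 is day 0 library 5. Most day 10 libraries lie at the day 3 level. Of day 10, gamergate library 5 lies at −0.10 and 0.29 and worker library 5 at −0.07 and 0.01.

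At day 10 the median levels of these genes were near those of day 3. Day 10 against day 0 gave 2446 calls (24.7%), 1008 higher (10.2%) and 1438 lower (14.5%), from the same day 0 libraries. The same comparison without day 0 library 5 gave 1077 (10.9%), 557 higher (5.65%) and 520 lower (5.28%), so that the excess of falls was gone. The median log2 fold change against day 0 at day 10 was 0.73 for the 837 genes higher at day 3 and −0.77 for the 1466 lower. Against day 3 the medians were −0.02 and 0.05. Day 10 against day 3, tested directly, gave 5 genes (0.0506%), 1 higher (0.0101%) and 4 lower (0.0405%), and none of the 5 was among the genes called at day 3. At an unadjusted p below 0.05 in edgeR this comparison gave 521 (5.27%). Without day 0 library 5 it gave 59 (0.599%) at an adjusted p below 0.05 and 911 (9.25%) at an unadjusted p below 0.05. Day 10 libraries carry a different flow cell code from all day 3 libraries, so day and flow cell cannot be told apart in it.

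Genes enriched in the brain rose more often than they fell. The brain group holds 860 genes with a log2 fold above 3 in brain against each other tissue at day 10, a day outside the comparison. Of them, 135 (15.7%) were higher and 22 (2.56%) lower at day 3, with a median log2 fold change of 0.43, beside 8.47% and 14.8% and a median of −0.03 over all genes tested. Without day 0 library 5 the counts were 48 and 8 of 860 and the median 0.34, beside 3.35% higher and 4% lower of all genes tested. When the group was defined at day 0 the median was 0.32, with 90 higher (12.6%) and 40 lower (5.6%) of 714. The excess of rises over the 8.47% of all genes was thus smaller by that definition. Since day 10 levels lay near those of day 3, a group defined at day 10 can favour genes that rose from day 0. A group defined at day 0 can favour genes that fell.

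As a share of assigned reads, the brain group did not pass a test. It made up 17.6% ± 1.32 (SD, n = 10) of reads at day 3 and 15.9% ± 2.68 (SD, n = 5) at day 0, with overlap, and day 0 library 5 was the lowest at 12.2% (exact permutation p = 0.136, adjusted p = 0.203). Without that library the difference was 0.682 points, against 1.62 with it (exact permutation p = 0.4545, adjusted p = 0.682). Most called genes belonged to no tissue group: 82.2% of the 837 higher and 96.9% of the 1466 lower, beside 89% of all genes tested.

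The fat body and ovary groups had medians nearer 0 than the brain group. Of the 325 fat body genes, 197 passed the filter on low counts in the brain. Of these, 12 were higher (6.09%) and 18 lower (9.14%), beside 8.47% and 14.8% over all genes tested. Their median log2 fold change was 0.02. Without day 0 library 5, 8 of 198 were higher and 10 lower, beside 3.35% and 4% of all genes tested, and the median was 0.10. The group made up 2.52% ± 0.3303 (SD, n = 10) of day 3 reads, from 2.17% to 3.13%, and 2.41% ± 0.497 (SD, n = 5) of day 0 reads, from 1.81% to 3.13% (exact permutation p = 0.622, adjusted p = 0.7998). The difference of 0.108 points became −0.0435 without day 0 library 5. Of the 175 ovary genes, 35 passed the filter in the brain, 2 higher (5.71%) and 5 lower (14.3%), with a median of −0.17. These were 0, 1 and −0.10 without day 0 library 5. That group held 0.115% ± 0.00834 (SD, n = 10) of day 3 reads and 0.126% ± 0.0112 (SD, n = 5) of day 0 reads (exact permutation p = 0.0373, adjusted p = 0.0839), a difference of −0.0114 points that was −0.00699 without day 0 library 5.

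The 29 falls of more than 4-fold were of different kinds. In 11 of them, day 0 libraries 1 and 3 were the 2 highest of the day 0 group, and the lower of the 2 was still more than 3 times the next. These 11 genes took 4.67% of assigned reads in day 0 library 1 and 3.35% in day 0 library 3. In day 0 libraries 2, 4 and 5 they took 0.264%, 0.432% and 0.0788%, and in the day 3 libraries 0.0361% to 0.69%. Most of the share in libraries 1 and 3 came from HSALG012731.2 (21880 and 14470 CPM) and HSALG012315.1 (21330 and 16860 CPM). The next of the 11, HSALG004811.2, held 583.7 and 343.6 CPM there. Libraries 1 and 3 carry different flow cell codes. In these genes the highest day 0 levels thus came from a pair of libraries. The 11 were picked out after their values were seen.

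For 3 other falls of more than 4-fold, the day 0 fat body level was over 20 times the brain level. Together these took 0.00492% to 0.121% of reads in the day 0 brains and 0.000685% to 0.00376% in the day 3 brains. HSALG002043.2 is such a gene, with 432 CPM in the brain and 54460 CPM in the fat body at day 0.

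The same days were compared in the other tissues of the series, which share no library with the brain. Their libraries follow the same layout of flow cell and lane codes as the brain libraries. The labels do not say whether they come from the same animals. The part of this layout or of shared animals in the overlaps below was not tested. In the fat body 1292 of 7941 genes tested (16.3%) differed between day 3 and day 0, 684 higher (8.61%) and 608 lower (7.66%). In the ovary the count was 1937 of 9150 (21.2%), 952 higher (10.4%) and 985 lower (10.8%). Of 587 genes called higher in the brain and tested in the fat body, 154 were also higher there (26.2% of the brain list and 24.5% of the fat body list), against 8.39% of all genes tested in both. Of 1263 called lower in the brain, 220 were lower in the fat body (17.4% and 39.6% of the 2 lists, background 7.42%). Calls in opposite directions numbered 10 and 6. With the brain calls made without day 0 library 5, 67 of 251 higher (26.7%, and 10.7% of the fat body list) and 74 of 332 lower (22.3% and 13.3%) were shared, with 7 and 3 opposite.

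The ovary was compared in the same way. Of 678 genes higher in the brain, 205 were higher in the ovary (30.2% of the brain list and 23.3% of the ovary list, background 10.6%), and 0 were lower. Of 1368 genes lower in the brain, 472 were lower in the ovary (34.5% and 50.3% of the lists, background 11.3%), and 5 were higher. Without day 0 library 5, 81 of 275 higher (29.5% and 9.2%) and 141 of 353 lower (39.9% and 15.1%) were shared, with 0 and 3 opposite. The median change of the brain's higher genes was 0.45 for fat body and 0.40 for ovary on the log2 scale, and that of its lower genes −0.34 and −0.36. The changes were thus in the same direction and smaller than the brain medians of 0.77 and −0.81, which come from the libraries that chose the genes.

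HSALG027442.1 rose in all 3 tissues: from a mean of 28.6 to 140 CPM in the fat body (log2 fold change 2.29, edgeR adjusted p = 2.67e-05) and from 5.09 to 26.9 CPM in the ovary (2.36, adjusted p = 0.000287). HSALG002043.2 fell in all 3, and in the ovary went from 155 to 4.77 CPM (log2 fold change −4.98, adjusted p = 0.00135). HSALG027005.1 fell in the ovary as in the brain (log2 fold change −2.46, adjusted p = 0.000161) and had too few reads to be tested in the fat body. HSALG011308.2 rose in brain and fat body, while its ovary change was 0.20 (adjusted p = 0.5995).

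**Figure D5:**
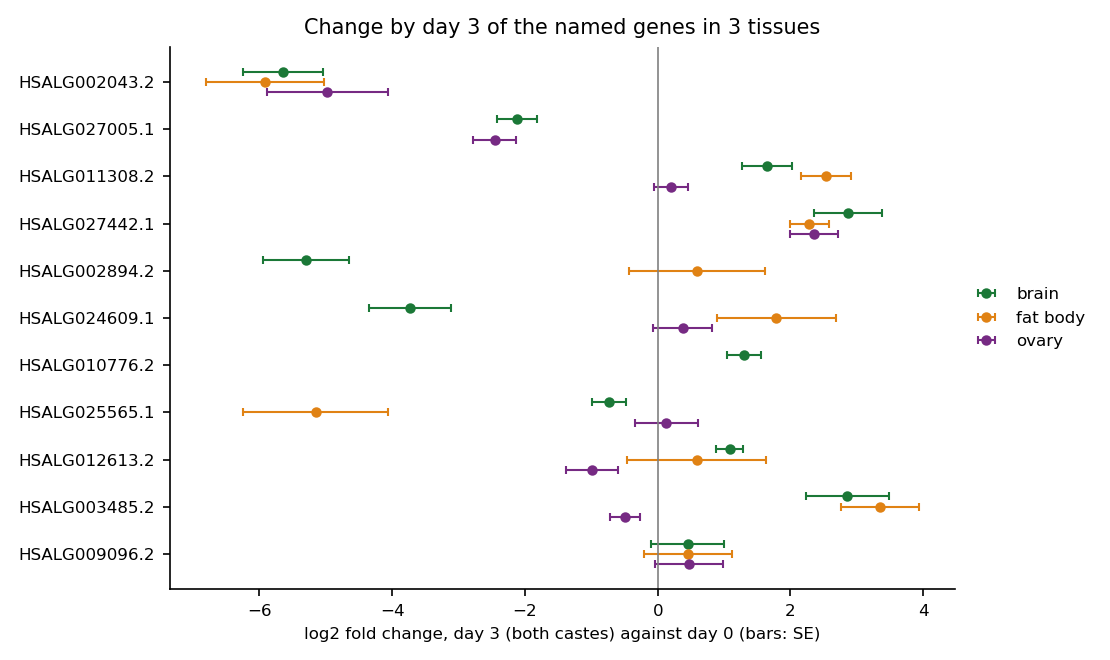
Log2 fold change from day 0 to day 3, both castes together (horizontal axis; points are edgeR estimates, bars 1 SE), of the named genes in brain, fat body and ovary. HSALG002043.2 and HSALG027442.1 lie on the same side of 0 in all 3 tissues, HSALG002894.2 and HSALG024609.1 lie far below 0 in the brain, and a missing point is a gene that did not pass the filter on low counts in that tissue.

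Whether a change differed between tissues was tested as the difference itself. The brain change minus the fat body change passed for 285 of 10566 genes (2.7%), 154 above 0 (1.46%) and 131 below 0 (1.24%). The brain change minus the ovary change passed for 42 of 10881 genes (0.386%), 17 above (0.156%) and 25 below (0.23%). At an unadjusted p below 0.05 the 2 tests gave 1511 (14.3%) and 1304 (12%). Without brain day 0 library 5 the fat body count was 248. The ovary count was 65 without brain day 0 library 2, 71 without brain day 0 library 5 and 72 without ovary day 0 library 2.

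Among genes called both in the difference and in the brain, with a mean of at least 10 CPM there, a pair had the most negative differences against each other tissue. HSALG002894.2 held 471, 3.79, 191, 39.3 and 19.9 CPM in the day 0 brains and 1.37 to 7.06 CPM with a median of 3.50 in the day 3 brains. Day 0 library 2 lay within the day 3 range, and libraries 1 and 3 were the highest. Its brain log2 fold change was −5.30 (SE 0.645 and adjusted p = 4.26e-05 by edgeR), and −5.58 without day 0 library 5 (adjusted p = 4.35e-05). In the fat body its mean was 6.24 CPM at day 0 and 10.3 CPM at day 3, a change that did not pass (edgeR adjusted p = 0.727). In the ovary its means were 4.17 and 3.43 CPM, from 1 to 16 reads per library. It did not pass the filter on low counts when the ovary was fitted alone, so its ovary change by itself was not tested. The difference of changes was −5.81 against the fat body (SE 1.26, adjusted p = 0.00469) and −5.05 against the ovary (SE 0.936, adjusted p = 0.00266).

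HSALG024609.1 held 187, 15.2, 51.7, 1.97 and 179 CPM in the day 0 brains and 2.13 to 15.7 CPM with a median of 5.30 in the day 3 brains. Day 0 libraries 2 and 4 lay within or below the day 3 range. The brain log2 fold change was −3.73 (SE 0.618 and adjusted p = 0.00102 by edgeR), and −3.24 without day 0 library 5 (adjusted p = 0.00723). Its mean in the fat body was 20.04 CPM at day 0 and 68.1 CPM at day 3, and in the ovary 70.6 and 94.4 CPM, neither of which passed. The difference was −5.42 against the fat body (SE 1.15, adjusted p = 0.00375) and −4.06 against the ovary (SE 0.831, adjusted p = 0.00831). The latter was −3.28 (adjusted p = 0.0541) when libraries of the same day, caste and number in the 2 tissues were treated as a block, a choice made after seeing the data.

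The 2 genes above 0 against the fat body both rested on fat body day 0 library 3. HSALG010776.2 is a gene of the brain group that rose in the brain, from 22.1, 19.9, 19.1, 28.3 and 5.70 CPM at day 0 to between 34.1 and 61.4 CPM at day 3 with no overlap (log2 fold change 1.30, SE 0.259 and adjusted p = 0.00372 by edgeR; 1.06 and adjusted p = 0.00675 without brain day 0 library 5). In the fat body at day 0 it stood at 19.1 CPM in library 3 and at 0 in the other 4. It did not pass the filter on low counts when the fat body was fitted alone. The difference of 3.98 (adjusted p = 0.0249) became −2.07 (adjusted p = 0.570) without that library. HSALG025565.1 fell in the brain, from 34.2, 27.5, 27.8, 31.1 and 16.4 CPM to between 8.86 and 29.7 CPM with overlap (log2 fold change −0.73, SE 0.251, adjusted p = 0.0381; −0.87 and adjusted p = 0.0338 without brain day 0 library 5). Its fat body level was 644.5 CPM in day 0 library 3, with a day 0 median of 2.65 CPM. The difference of 4.47 (adjusted p = 0.0219) became −1.32 (adjusted p = 0.303) without it, and the count of 285 became 222.

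Against the ovary, HSALG012613.2 and HSALG003485.2 had the largest positive differences among genes called in the brain. HSALG012613.2, a gene of the brain group, held 737, 483, 640, 478 and 372 CPM in the day 0 brains. Its day 3 levels were 1171, 1096, 1326, 1332 and 977 CPM in gamergates and 1206, 1531, 1233, 859 and 767 CPM in workers, all above day 0, though worker library 5 exceeded day 0 library 1 by little. The log2 fold change was 1.09 (SE 0.2002 and adjusted p = 0.00209 by edgeR), and 0.98 without day 0 library 5 (adjusted p = 0.00650). Its ovary mean went from 20.6 to 10.4 CPM, a change that did not pass (log2 fold change −0.99, edgeR adjusted p = 0.0734). The difference was 2.08 (SE 0.422, adjusted p = 0.00625).

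HSALG003485.2 held 3.31, 9.48, 1.59, 1.57 and 1.42 CPM in the day 0 brains and 9.40 to 48.5 CPM with a median of 20.4 in the day 3 brains. Only day 0 library 2 reached the lowest day 3 value. The brain log2 fold change was 2.86 (SE 0.622 and adjusted p = 0.00598 by edgeR), and 2.69 without day 0 library 5 (adjusted p = 0.0198). Its ovary mean went from 528 to 376 CPM (log2 fold change −0.49, adjusted p = 0.113), and the difference was 3.39 (SE 0.643, adjusted p = 0.00293). In the fat body it rose from a mean of 125 to 1282 CPM (log2 fold change 3.35, adjusted p = 0.000511). The brain held 2.78% of the fat body level at day 0 and 1.82% at day 3, and the part of fat body RNA in the brain rise was not tested.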

How the data were processed

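Counts are the authors' deposited whole-number reads per gene, not normalized, for 20659 gene rows in 75 libraries. Per the submitters' processing notes, Trimmomatic, STAR 2.5.3a and HTSeq were used. The sources used here do not give the genome build, the annotation or the use of strand in counting. The table's 5 rows for reads without a gene stayed out of library sizes and tests. In the 15 libraries, reads outside genes made up 52.6% to 67.7%, multiply aligned reads 4.62% to 8.35% and ambiguous reads 0.615% to 1.17%.

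Brain libraries (25) were fitted together with edgeR 4.0.16 in R 4.3.3 (filterByExpr, minimum count 10, minimum total 15; TMM; robust quasi-likelihood; 1 coefficient per group). The contrast was the mean of both day 3 castes minus day 0, with Benjamini-Hochberg adjustment over all genes tested and a threshold of 0.05. Fat body and ovary were fitted likewise, and differences between tissues over the 50 libraries of a tissue pair. The standard error is the absolute log2 fold change over the square root of F. CPM uses library sizes scaled by TMM within each tissue, so brain levels given as a percentage of fat body levels are approximate. The analysis was tested on simulated data. DESeq2 1.42.0, limma 3.58.1, other scalings, filters, batch terms and left-out libraries were alternatives.

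Tissue groups are genes with a log2 fold above 3 against both other tissues, an adjusted p below 0.05 and a mean of 10 CPM or more, from the 30 day 10 libraries. Named genes are the 2 largest rises and falls in each comparison: for day 3 against day 0, among called genes without overlap between groups, where the higher group averaged 10 CPM or more. For differences between tissues, they are called in the difference and in the brain, with the same minimum. HSALG009096.2 was added because an earlier account of these data singled it out. The libraries, lists and rules were chosen with earlier results of these data known. Gene lists and cell type markers, which need names, could not be applied, since 0 identifiers matched the RefSeq table, and genes that overlap or share reads with near-identical copies could not be recognised. No 2 libraries held identical counts.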

Additional observations from a re-analysis of the deposited data

Results flagged for a closer look

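Day 0 library 5 lay far from the other 4 day 0 libraries in 3 measures. Reads outside genes were 67.67% of it against 57.05% to 58.03% in the others, multiply aligned reads 8.346% against 5.743% to 6.318%, and ambiguous reads 0.615% against 0.7644% to 0.788%. In day 3 worker library 2, the fat body group held 2.645% of reads, above 2.169% to 2.267% in the other 4 worker libraries. HSALG003485.2 stood at 9.475 CPM in day 0 library 2 and at 1.424 to 3.31 CPM in the other 4. These 5 came from 60 groups of 5 libraries examined, and chance alone flags about 1 in 20 such groups.

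Changes from day 0 to day 3 that differed between tissues, by a test of the difference itself, were also marked. On the log2 scale, the brain change minus the fat body change was −5.81 for HSALG002894.2, −5.42 for HSALG024609.1, 3.976 for HSALG010776.2 and 4.465 for HSALG025565.1. The last 2 rest on fat body day 0 library 3, without which they were −2.067 and −1.321 and did not pass. The brain change minus the ovary change was −5.052 for HSALG002894.2, −4.063 for HSALG024609.1, 2.081 for HSALG012613.2 and 3.392 for HSALG003485.2. These 4 passed with each single ovary library of day 0 or day 3 left out. HSALG002894.2 had too few ovary reads to be tested in the ovary alone.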

How the results depend on the processing

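Beside the 2303 genes of both castes against day 0, 10 of 15 other settings gave counts within 1.5 times of it. The rest were 563 with flow cell and lane as a term and, in alternatives chosen after seeing the data, 41 with the share of reads outside genes as a covariate, 27 with that covariate and no day 0 library 5, 112 within the day 3 flow cell code without that library, and 4470 with limma voom and library quality weights. Leaving out 1 library at a time gave 724 to 2625. Counts were 2630 with DESeq2 and 2775 without day 0 library 5 and day 10 gamergate library 5. With flow cell and lane as a term, the worker count of 131 became 2209, from day 0 libraries 1 and 5 only. Gamergates then rest on day 0 library 2 alone, so their count is not given. Over the settings chosen after seeing the data, in the order above, the gamergate count of 1634 became 9, 0 (edgeR, 963 at an unadjusted p below 0.05), 156 and 5016. The worker count became 31, 17, 30 and 1682 in the same order. Without both libraries that stood apart, the gamergate count was 2882 and the worker count 573. The gamergate count was 759 without the filter on low counts. The worker count was 471 with DESeq2, 24 with day 0 and day 3 libraries only, 1006 with flow cell as a term and 16 within the day 3 flow cell code. Leaving out 1 library gave 305 to 1859 and 22 to 306. Gamergate against worker gave 0 in the 14 settings and 15 left-out libraries run, and 1 gene with flow cell and lane as a term, where lane is estimated from day 0 only.

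Replicate numbers were not shown to pair the libraries: over 15 same-numbered pairs of day 0 and day 3 brain libraries, correlations of deviations ran from −0.393 to 0.419, and in 1 of 15 the best partner was the own number. With a replicate block the counts were 3350, 2745 for gamergates, 1141 for workers and 74 for the brain change minus the ovary change, which was 35 to 71 with 1 brain library left out and up to 72 with 1 ovary library left out. Deviations of same-numbered libraries correlated at −0.173 to 0.44 between brain and fat body (median 0.128, 11 of 15 above 0) and at −0.0313 to 0.425 between brain and ovary (median 0.135, 14 of 15 above 0). With such pairs as a block, chosen after seeing the data, the differences between tissues gave 216 and 54 calls.

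HSALG009096.2 went from 0.45 to −0.51 with the covariate, −0.57 with it and no day 0 library 5, and −0.30 within the flow cell code without that library. Reads outside genes differed by −6.04 points within the day 3 flow cell code (exact permutation adjusted p = 0.0944), and by −5.55 to −2.89 with 1 library left out. The ovary group's share differed by −0.00933 points without its largest gene and by −0.0137 to −0.00699 with 1 library left out. Its median was 0.15 when defined at day 0. Assigned reads differed by −83260 to 329800 and genes with at least 5 reads by −134 to 262 with 1 library left out, and the fat body group's share by −0.0435 to 0.288 points. The causes were not tested. The day 3 library with fewest assigned reads had 504425, where 10 CPM is about 5 reads, which limits low genes.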

Other observations

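The 10 brain libraries of day 10 were on neither side of the day 3 comparison but entered its fit, so its counts depend on them. Without day 0 library 5 that count was 724, and without day 10 gamergate library 5 as well it was 2775. Reads outside genes made up 50.6% to 55.8% of the day 10 brain libraries. Multiply aligned reads made up 8.99% of day 10 gamergate library 5 and 4.62% to 6.06% of the other 9. The fat body group held 4.00% to 6.61% of reads in the day 10 gamergate brains and 2.36% to 3.15% in the day 10 worker brains, beside 2.17% to 3.13% in the 10 day 3 brains. HSALG009096.2, a gene of that group, held 11020 to 22070 CPM in the day 10 gamergate brains and 179 to 2979 CPM in the day 10 worker brains, ranges that did not overlap. Caste and lane cannot be told apart at day 10, and these caste differences were not tested.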
